A study of Homo sapiens with 5 samples.

Results

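The S100A genes described here are S100A4, S100A6, S100A8, S100A9, S100A10, S100A11 and S100A13, 7 of the 57221 rows of a table of read counts per gene symbol. They were picked by symbol, and the family was chosen because S100A9 was lower after treatment in these same libraries. The difference between the groups chose the family, so for its members this difference is a description: no p-value is given for them, and where members called by the fit over all genes are counted, nothing is read from the count. The cells were NK92MI, a line of human natural killer (NK) cells with an introduced IL2 gene, which grows without added interleukin 2. They were cultured for 48 h with 10 µM UNC1999 (3 libraries), a small molecule that inhibits the histone methyltransferases EZH2 and EZH1, or with the solvent DMSO (2 libraries). Every library comes from this 1 cell line, grown in the same medium. Separate cultures are not recorded in the labels. The p-values therefore measure only how far these libraries spread, which could be technical.

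S100 proteins are small cytoplasmic proteins with a pair of calcium-binding EF-hand motifs that usually work as dimers. On binding calcium most of them open a surface that grips partner proteins. S100A8 and S100A9 join into calprotectin, a complex made in bulk by neutrophils and monocytes, which binds zinc and manganese and, once released, signals through receptors such as TLR4 and AGER (RAGE). S100A10 holds annexin A2, S100A11 holds annexin A1, S100A6 (calcyclin) binds CACYBP, S100A4 binds non-muscle myosin heavy chain MYH9, and S100A13 takes part in the release of FGF1 from cells. All members lie on chromosome 1 in band 1q21, inside the stretch that also holds the genes of the skin barrier.

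The 250 bases before the annotated start of S100A9, which was lower in UNC1999, S100A4, which was higher, and S100A6, the most abundant member, are shown 5′ to 3′ as RefSeq gives them for GRCh38.p14. They are shown because the members differ sharply in how many CG dinucleotides stand there. Capitals mark every CG and the motif TATAAA.
S100A9 (chr1:153357604-153357853, plus strand): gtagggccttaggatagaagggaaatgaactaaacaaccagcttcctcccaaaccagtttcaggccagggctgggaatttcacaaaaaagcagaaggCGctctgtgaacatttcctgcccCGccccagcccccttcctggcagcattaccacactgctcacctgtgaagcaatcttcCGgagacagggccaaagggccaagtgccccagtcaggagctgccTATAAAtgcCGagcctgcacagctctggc
S100A4 (chr1:153545807-153546056, minus strand): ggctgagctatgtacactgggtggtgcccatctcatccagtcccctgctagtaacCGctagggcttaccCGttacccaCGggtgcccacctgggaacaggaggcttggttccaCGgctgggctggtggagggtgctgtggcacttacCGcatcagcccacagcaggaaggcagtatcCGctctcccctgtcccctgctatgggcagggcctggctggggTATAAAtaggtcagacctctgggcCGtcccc
S100A6 (chr1:153535992-153536241, minus strand): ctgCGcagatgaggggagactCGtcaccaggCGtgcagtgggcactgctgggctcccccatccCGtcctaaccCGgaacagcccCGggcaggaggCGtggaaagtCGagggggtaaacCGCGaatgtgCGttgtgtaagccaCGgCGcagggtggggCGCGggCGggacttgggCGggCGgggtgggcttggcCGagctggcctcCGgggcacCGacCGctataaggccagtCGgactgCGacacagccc

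S100A9 had 4 CG dinucleotides in this window and S100A4 had 7. S100A6 and S100A10 had 24 each and S100A11 had 15. S100A8, with 3 annotated starts, had 2 at each of them, and the 3 starts of S100A13 had 15, 10 and 8. The median over 35116 annotated starts of all genes was 11. TATAAA, searched on both strands, was present before the starts of S100A9 and S100A4, before 2 of the 3 starts of S100A8 and before 1 of the 3 starts of S100A13. It was absent from the windows of S100A6, S100A10 and S100A11. Of all windows 10.7% held it. The GC box GGGCGG, on either strand, was found in the windows of S100A9, S100A6, S100A10 and S100A11 and at 1 start of S100A13, against 42.6% of all windows. These are descriptions of letters in a window and say nothing of which factors bind there.

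Totals per library were 8442908 to 8748106 counts. Within groups, log2 values correlated at 0.992 in DMSO and at 0.990 to 0.993 in UNC1999. UNC1999 replicate 2 stood apart, with a chi-square per degree of freedom of 7.47 against replicate 1 and 8.77 against replicate 3, while replicates 1 and 3 gave 1.81 and the DMSO libraries 3.14. Without it 2862 genes were called higher and 3030 lower, against 2057 and 2546 with all libraries (edgeR). The cells had the labelled lymphoid type, with NCAM1 (CD56), NKG7, PRF1 and GZMB all well detected and NCR3 the only 1 of 13 NK markers without a count. KLRK1, named after its values were seen, had 8, 7 and 11 counts in UNC1999 and 4 and 3 in DMSO, too few for the test. Of 11 NK markers tested CD7 rose (0.84, edgeR adjusted p = 7.38e-06) and CD244 fell (-0.55, edgeR adjusted p = 0.000147). With offsets, which remove each library's trend with the GC content and length of transcripts, 2 were higher, CD7 (0.70) and PRF1 (0.26), and 2 lower, KLRD1 (-0.68) and CD244 (-0.18). Summed NK marker levels were 4790 to 5337 CPM in UNC1999 and 5109 to 5355 CPM in DMSO. The part of these marker levels in the results was not tested. CPM is the read count scaled to library size, here with TMM factors. Calprotectin is typical of myeloid cells, so their markers were read as well. Of 20 monocyte and granulocyte markers, 10 had no count in any library, among them LYZ, ELANE and FCN1, and CD14 had 2, 2 and 2 counts in UNC1999 and 1 and 1 in DMSO. Their summed level was 128.1 to 171.0 CPM in UNC1999 and 136.4 to 157.1 CPM in DMSO, mostly the integrin gene ITGAX, and none of the 3 tested markers was called by edgeR (1 had an unadjusted p under 0.05). T cell markers summed to 651 to 744 CPM in UNC1999 and 755 to 793 CPM in DMSO, with CD3D, CD3G, CD4 and CD8B at 0 in every library. CD3E made up most of this sum (566 to 650 CPM in UNC1999 and 647 to 677 CPM in DMSO) and was not called, though higher with offsets (0.28). TRAC, the other tested T cell marker, fell (-0.37, edgeR adjusted p = 0.00814; 0.0060 and not called with offsets). B cell markers summed to 17.3 to 24.5 CPM in UNC1999 and 23.8 to 25.6 CPM in DMSO. In bulk RNA, fewer cells with a transcript and less transcript per cell cannot be told apart. Nor does a count of 0, here or below, show that a transcript was absent, as the assignment of reads to symbols is not known.

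S100A9, the calprotectin subunit that is the larger of the pair and stabilizes S100A8, was the member with the largest difference. It had 51, 53 and 33 counts in the UNC1999 libraries, against 82 and 92 counts in the DMSO libraries. Scaled for library size, these were 5.76, 5.78 and 3.75 CPM in UNC1999 and 10.2 and 10.9 CPM in DMSO. All UNC1999 libraries lay below both DMSO libraries, and the lowest was UNC1999 replicate 3. The means were 5.10 ± 1.16 CPM in UNC1999 and 10.6 ± 0.536 CPM in DMSO (SD, n = 3 and n = 2). The log2 fold change was -1.05 ± 0.20 (SE). Counting error alone, as an exact 95% binomial interval on the library total, spans 2.61 to 5.33 unscaled CPM for UNC1999 replicate 3 and 7.72 to 12.1 unscaled CPM for DMSO replicate 1. Such intervals cover counting error only. Without UNC1999 replicate 2 the log2 fold change was -1.14, and without UNC1999 replicate 3 it was -0.87. With offsets S100A9 had -0.88 ± 0.19 (SE). In GENCODE 29 (GRCh38) S100A9 spans 153357854 to 153361027 on the plus strand and overlaps no other annotated gene.

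S100A8, the partner of S100A9 in calprotectin, was at the limit of detection. It had 1, 0 and 1 counts in UNC1999 and 0 and 1 counts in DMSO. Taking 3 counts as the limit that a count of 0 allows, the libraries at 0 could hold up to 0.344 unscaled CPM in UNC1999 replicate 2 and 0.355 unscaled CPM in DMSO replicate 1. The gene had too few reads for the test, and at this depth no difference between the groups could be seen. S100A9 was thus counted in every library and S100A8 in 3 of 5. S100A12, the third member of the group often named with them in myeloid cells, had 0, 2 and 0 counts in UNC1999 and 0 and 1 in DMSO.

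S100A4, which binds the heavy chain of non-muscle myosin and is associated with cell migration, differed in the other direction. It had 206, 217 and 185 counts in UNC1999, against 130 and 152 counts in DMSO. These were 23.3, 23.7 and 21.05 CPM in UNC1999 and 16.1 and 18.1 CPM in DMSO, so that the groups did not overlap. The means were 22.7 ± 1.40 CPM in UNC1999 and 17.1 ± 1.37 CPM in DMSO (SD, n = 3 and n = 2). The log2 fold change was 0.40 ± 0.14 (SE). It was 0.38 without UNC1999 replicate 2 and 0.60 ± 0.12 (SE) with offsets. In GENCODE 29 (GRCh38) S100A4 runs from 153543613 to 153550136 on the minus strand, a span that contains the whole of S100A3 with no shared exon bases. The RefSeq window shown above lies inside this span, so the start of S100A4 differs between these annotations. The windows of S100A6, S100A10 and S100A11 lie inside their GENCODE 29 spans too, as do those of S100A13 starts 2 and 3. The windows of S100A8 starts 2 and 3 lie partly inside its span.

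**Figure D1:**
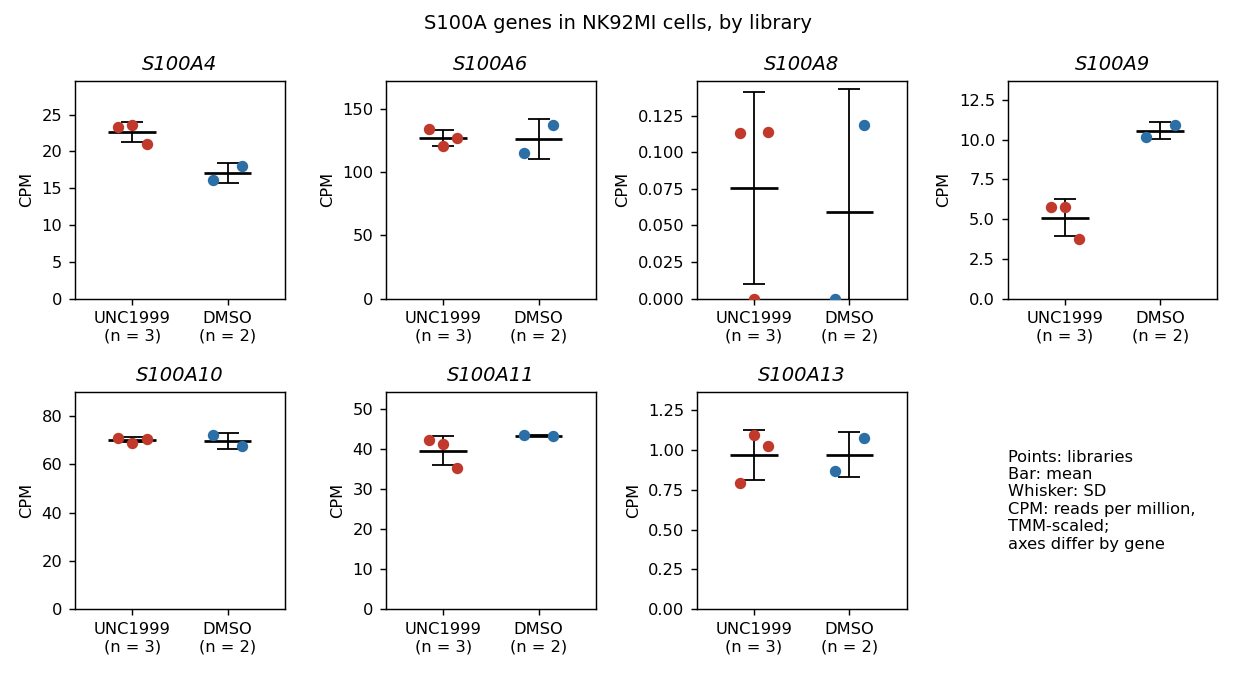
CPM of each S100A gene on the vertical axis, with the 3 UNC1999 libraries left of the 2 DMSO libraries. Points are libraries, the bar is the mean and the whisker the SD. S100A9 lies at 3.75 to 5.78 CPM in UNC1999 and 10.2 to 10.9 CPM in DMSO, S100A4 is higher in UNC1999 without overlap, and S100A6 and S100A10 overlap between the groups.

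S100A6, the member with the most reads, had 1185, 1107 and 1113 counts in UNC1999 and 928 and 1157 counts in DMSO. The means were 127.0 ± 6.58 CPM in UNC1999 and 126.4 ± 15.8 CPM in DMSO (SD, n = 3 and n = 2). The widest gap was between the DMSO libraries themselves, at 115.2 and 137.6 CPM, and the UNC1999 libraries lay between them. The log2 fold change of 0.0069 ± 0.11 (SE) became 0.14 without DMSO replicate 2, -0.12 without DMSO replicate 1 and 0.05 without UNC1999 replicate 2.

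S100A10, the annexin A2 partner that has lost calcium binding, had 628, 632 and 620 counts in UNC1999 and 580 and 567 counts in DMSO. It was the steadiest member, with 70.1 ± 1.08 CPM in UNC1999 and 69.7 ± 3.25 CPM in DMSO (SD, n = 3 and n = 2) and overlapping groups. Its log2 fold change was 0.0084 ± 0.11 (SE), 0.03 without UNC1999 replicate 2, and 0.17 ± 0.08 (SE) with offsets.

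S100A11, the annexin A1 partner, had 375, 378 and 311 counts in UNC1999 and 350 and 364 counts in DMSO. These gave 42.3, 41.2 and 35.4 CPM in UNC1999 and 43.5 and 43.3 CPM in DMSO. The groups did not overlap, but UNC1999 replicates 1 and 2 lay close below the DMSO libraries and UNC1999 replicate 3 accounted for most of the gap. The log2 fold change was -0.13 ± 0.12 (SE), -0.05 without UNC1999 replicate 3, and 0.10 ± 0.10 (SE) with offsets, so its sign turned with that correction. S100A11 has near-identical pseudogene copies, and the sources used here do not say how reads shared with them were assigned.

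S100A13, linked to the release of FGF1, had 7, 10 and 9 counts in UNC1999 and 7 and 9 counts in DMSO, too few for the test. The levels were 0.968 ± 0.157 CPM in UNC1999 and 0.970 ± 0.142 CPM in DMSO (SD, n = 3 and n = 2). In GENCODE 29 it shares 235 exon bases with S100A1 on the opposite strand, and no strand setting was given, so reads there cannot be assigned to one gene. It also shares 536 exon bases on the same strand with AL162258.1, which has no row under that name in the counts. Over the 5 tested members, 1 was called higher (S100A4) and 1 lower (S100A9) at an edgeR adjusted p under 0.05, with 3 not called. Of all 13075 genes tested 35.2% were called, 15.7% higher and 19.5% lower, and nothing is read from the members' counts, since the same contrast chose the family. The S100A4 call was lost without DMSO replicate 1 (log2 fold change 0.32), without DMSO replicate 2 (0.49), without UNC1999 replicate 1 (0.39), with DESeq2 (0.43) and at a threshold of 0.01. Groups did not overlap for 3 of the 5 tested members (S100A4, S100A9 and S100A11), against 54.6% of all tested genes (24.2% with UNC1999 higher and 30.4% with UNC1999 lower). With offsets the same 2 members were called, against 34.2% of 11019 genes.

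**Figure D2:**
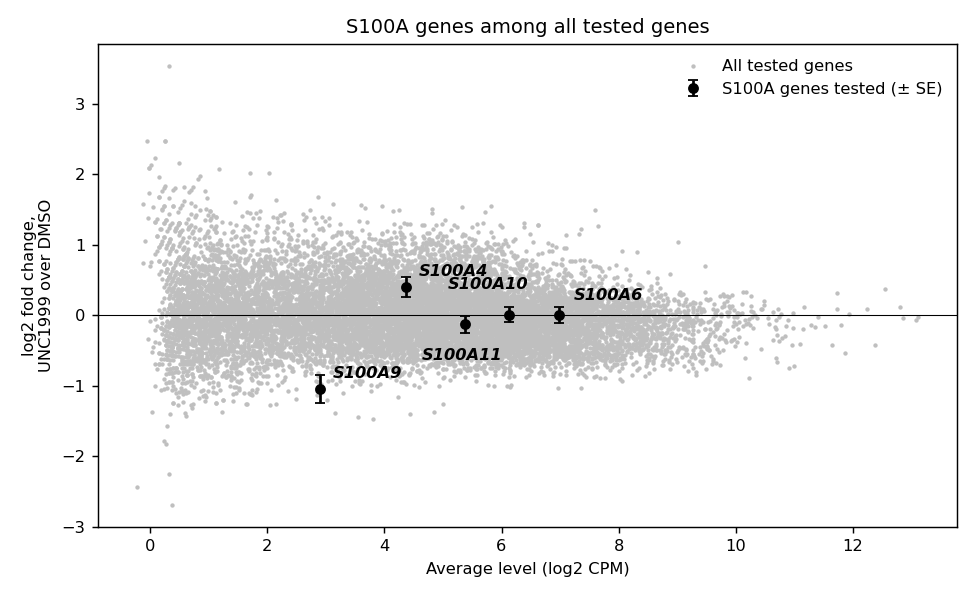
Log2 fold change of UNC1999 over DMSO against average level in log2 CPM for all 13075 tested genes (grey) and the 5 tested S100A genes (black, bars are SE). S100A9 lies at -1.05, S100A4 at 0.40, and S100A6, S100A10 and S100A11 between -0.13 and 0.01.

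The highest and lowest members differed far more from each other than any member did between the groups. Members of similar level, such as S100A11 and S100A10, differed less than S100A9 did between the groups. Per kilobase of the exons annotated in GENCODE 29, S100A6 stood at 130.8 ± 6.78 CPM per kb in UNC1999 and 130.2 ± 16.3 CPM per kb in DMSO (SD, n = 3 and n = 2). S100A11 followed with 58.3 ± 5.49 CPM per kb in UNC1999 and 63.8 ± 0.182 CPM per kb in DMSO. S100A10 had 45.4 ± 0.699 CPM per kb in UNC1999 and 45.2 ± 2.11 CPM per kb in DMSO. These gaps were larger than the spread between libraries, and the order of the 3 genes was the same in both groups. Taken per kilobase of the longest transcript, the order held but S100A11 and S100A10 stood closer. S100A11 then had 66.7 CPM per kb in UNC1999 and 73.0 CPM per kb in DMSO. S100A10 had 58.3 CPM per kb in UNC1999 and 58.0 CPM per kb in DMSO.

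S100A4 and S100A9 came next. In UNC1999, S100A4 had 20.5 to 23.1 CPM per kb and S100A9 had 6.51 to 10.0 CPM per kb, well apart. In DMSO, S100A4 had 15.7 and 17.6 CPM per kb and S100A9 had 17.6 and 19.0 CPM per kb, close enough that their order is not resolved. With the length of the longest transcript in place of all exons, S100A4 was the higher of the pair in DMSO too, at 22.7 CPM per kb against 18.3 CPM per kb for S100A9. The ratio of S100A9 to S100A4 counts needs no length. It was 0.248, 0.244 and 0.178 in UNC1999 and 0.631 and 0.605 in DMSO. S100A13 at 0.437 CPM per kb in UNC1999 and 0.438 CPM per kb in DMSO, and S100A8 at 0.0751 CPM per kb in UNC1999 and 0.0591 CPM per kb in DMSO, closed the order. Summed over all 7 genes the level was 258.5 to 277.0 CPM in UNC1999 and 257.9 to 278.5 CPM in DMSO. S100A9 made up 1.45% to 2.21% of the summed counts in UNC1999 and 3.93% to 3.95% in DMSO.

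**Figure D3:**
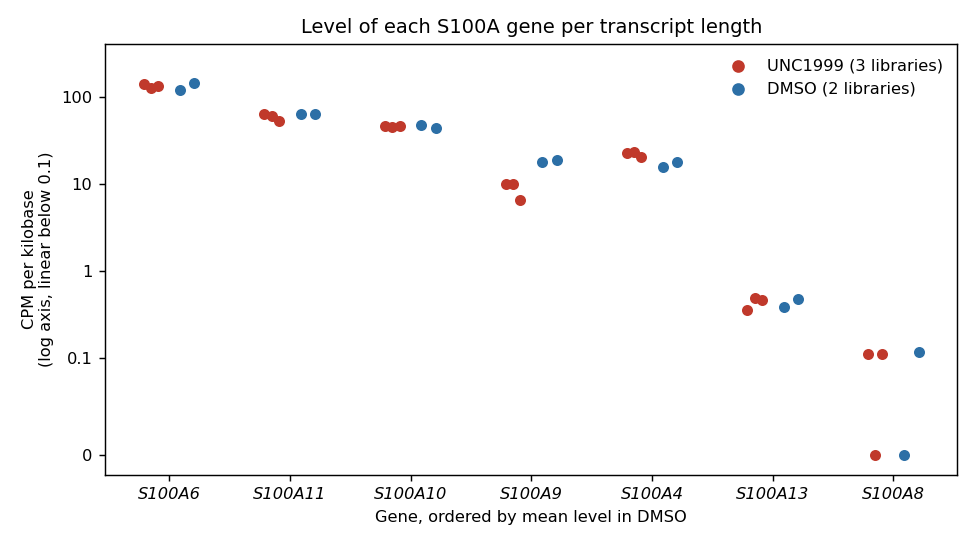
CPM per kilobase of annotated exons for each S100A gene on a log axis that is linear below 0.1, with UNC1999 libraries left of DMSO libraries. S100A6 is highest at 118.7 to 141.7 CPM per kb, S100A4 and S100A9 lie close together in DMSO and apart in UNC1999, and S100A8 has libraries at 0.

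Of 14 other S100 genes, 8 had a count in any library and 2 were tested. S100A1 had 30, 26 and 22 counts in UNC1999 and 37 and 37 counts in DMSO, and missed the threshold at -0.63 ± 0.26 (SE; edgeR adjusted p = 0.0545). S100A2 had 18, 23 and 24 counts in UNC1999 and 12 and 16 counts in DMSO, with 0.51 ± 0.35 (SE; edgeR adjusted p = 0.259). S100A5 had 9, 5 and 3 counts in UNC1999 and 4 and 4 in DMSO, and S100A3 had 4, 1 and 2 in UNC1999 and 1 and 0 in DMSO. S100B had 1, 2 and 4 counts in UNC1999 and 4 and 3 in DMSO. S100P and S100A14 had at most 1 count in any library. S100A7, S100A7A, S100A7L2, S100A16, S100G and S100Z had none.

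The 5 genes whose log2 CPM over the 5 libraries ran closest to S100A9, by Euclidean distance of deviations from each gene's own mean, were TUBB6, RP13-131K19.1, GID4, PDP2 and NQO1. TUBB6, a beta-tubulin gene, was nearest, at a distance of 0.190 log2 units, with 22.1, 26.6 and 16.6 CPM in UNC1999 and 41.7 and 45.9 CPM in DMSO. NQO1, a quinone reductase gene, was the fifth, at 0.310, with 14.8 ± 2.33 CPM in UNC1999 and 29.1 ± 1.26 CPM in DMSO (SD, n = 3 and n = 2). PDP2 encodes a pyruvate dehydrogenase phosphatase and GID4 a subunit of an E3 ubiquitin ligase. These genes were picked for their likeness to S100A9 in the same libraries, so the likeness is a description.

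Transcription factors known to act on S100A8 and S100A9 changed in both directions, and which direction held more of them depended on the offsets. Of 11 listed, 8 were tested, 5 fell, 2 rose and 1 was not called, where 19.5% of all tested genes fell and 15.7% rose, with a median log2 fold change of -0.46 against -0.01 for all genes tested. CEBPD, a C/EBP factor of inflammatory and myeloid gene control, had 56, 48 and 39 counts in UNC1999 and 82 and 91 counts in DMSO. It fell to 5.33 ± 0.947 CPM in UNC1999, against 10.5 ± 0.452 CPM in DMSO (SD, n = 3 and n = 2; log2 fold change -0.98 ± 0.19 SE, edgeR adjusted p = 0.000128, with offsets -1.12). The inflammatory factor NFKB1 fell as well (-0.50 ± 0.11 SE, edgeR adjusted p = 0.000394; with offsets -0.15, not called). The other genes that fell were CEBPB (-0.48), STAT3 (-0.43) and ATF3 (-0.57), which were picked for mention once their values were known. The hypoxia factor HIF1A rose to 66.0 ± 1.82 CPM in UNC1999, against 43.4 ± 3.13 CPM in DMSO (log2 fold change 0.61, edgeR adjusted p = 0.000102, with offsets 0.27).

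The other gene that rose, the haematopoietic factor MYB (0.48, edgeR adjusted p = 0.0392), was not called when DMSO replicate 1 (0.63) or 2 (0.33) or UNC1999 replicate 2 (0.43) or 3 (0.48) was left out, nor with DESeq2. Without DMSO replicate 1 this list had 3 lower and 1 higher. With offsets it had 2 lower (CEBPB and CEBPD), 3 higher and a median of -0.14. CEBPA and SPI1, which drive myeloid development, had no count in any library, and CEBPE had at most 1 (all 3 named after their values were seen). CEBPB and CEBPD were thus the lower genes called both with and without offsets.

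Genes for intracellular partners of S100 proteins went both ways. Of 15 listed, 12 were tested, 2 rose, 1 fell and 9 were not called (median 0.09; with offsets 5 rose, 4 fell and the median was 0.09). AHNAK, a giant scaffold protein that binds the S100A10 and annexin A2 complex, rose to 203.9 ± 5.23 CPM in UNC1999, against 117.9 ± 3.01 CPM in DMSO (log2 fold change 0.79 ± 0.11 SE, edgeR adjusted p = 8.92e-07, with offsets 0.80). PPFIBP1, which encodes the S100A4 partner liprin beta 1, rose (0.62, edgeR adjusted p = 0.00582), a call lost without DMSO replicate 2 (0.44). The co-chaperone gene STIP1 fell (-0.61, edgeR adjusted p = 3.87e-05). Without DMSO replicate 2 the list had 1 higher and 1 lower, and without UNC1999 replicate 2 it had 3 and 3. Beside the counts of this list and those below stand all tested genes, with 15.7% higher and 19.5% lower. With offsets these shares were 16.3% and 17.9%.

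MYH9, the myosin partner of S100A4, and CACYBP, the partner of S100A6, had -0.14 and -0.13 and did not pass the test. With offsets both were lower, at -0.27 and -0.37. These genes and SUGT1, another S100A6 partner (0.23, with offsets -0.38), were named after their values were seen. For SUGT1 the sign turned with the offsets.

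Annexins, the calcium-dependent membrane-binding proteins that several S100 proteins hold in pairs, gave 2 lower and 5 not called of 7 tested, and none rose, also by DESeq2, by limma-voom or at an unadjusted edgeR p under 0.05, with a median of -0.02 (with offsets 2 lower and 2 higher). ANXA7 fell to 57.5 ± 6.32 CPM in UNC1999, against 90.9 ± 5.27 CPM in DMSO (log2 fold change -0.66, edgeR adjusted p = 2.46e-05, with offsets -0.68). ANXA5 fell as well (-0.38, edgeR adjusted p = 0.0076), a call lost with offsets (-0.11). It was also lost when DMSO replicate 1 (-0.42) or 2 (-0.35) or UNC1999 replicate 1 (-0.33) or 3 (-0.31) was left out. Without each of these 4 libraries the list had 1 lower gene, and without UNC1999 replicate 2 it had 3. Nothing is read from the absence of higher annexins, as 15.7% of all tested genes rose and 7 genes are few. ANXA2, the S100A10 partner, had 471.9 ± 40.9 CPM in UNC1999 and 526.9 ± 17.9 CPM in DMSO (-0.16, edgeR adjusted p = 0.26). ANXA1, the S100A11 partner, had 0.20 (edgeR adjusted p = 0.353). Both were named after their values were seen, and neither was called with offsets.

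Receptors and surface partners of secreted S100 proteins gave 1 higher, 1 lower and 5 not called of 7 tested, from 13 listed (median -0.13; with offsets 3 higher, 1 lower and a median of 0.02). The adhesion molecule gene ALCAM had 11.7, 14.7 and 12.5 CPM in UNC1999 and 6.71 and 6.54 CPM in DMSO, and rose (log2 fold change 0.97 ± 0.18 SE, edgeR adjusted p = 6.21e-05, with offsets 0.67). NPTN, a receptor gene for S100A8, fell (-0.35, edgeR adjusted p = 0.0133; -0.03 and not called with offsets). That call was lost when DMSO replicate 1 (-0.34) or 2 (-0.38) or UNC1999 replicate 1 (-0.31) or 3 (-0.31) was left out. TLR4 and its partner LY96 had no count in any library. AGER had 0, 1 and 4 counts in UNC1999 and 8 and 2 counts in DMSO. The S100A9 receptor gene BSG was abundant at 458.0 ± 60.2 CPM in UNC1999 and 392.5 ± 9.04 CPM in DMSO (0.22, edgeR adjusted p = 0.127; with offsets 0.18, called). TLR4, LY96, AGER and BSG were named after their values were seen.

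In plasminogen activation, which S100A10 promotes at the cell surface, 2 of 4 tested genes fell and none rose by edgeR, also at an unadjusted p under 0.05, by DESeq2 or by limma-voom; DESeq2 called 1 lower (median -0.32; with offsets 2 fell, 1 rose and the median was -0.04). The urokinase gene PLAU fell to 34.0 ± 1.01 CPM in UNC1999, against 49.2 ± 7.35 CPM in DMSO (log2 fold change -0.53, edgeR adjusted p = 0.000716, with offsets -0.26). That call was lost without DMSO replicate 1 (-0.38). The plasminogen receptor gene PLGRKT fell (-0.45, edgeR adjusted p = 0.0229), and lost its call when DMSO replicate 1 (-0.50) or 2 (-0.41) or UNC1999 replicate 3 (-0.28) was left out, and with DESeq2. Leaving out DMSO replicate 1 took the list to 0 lower genes. With 15.7% of all tested genes higher, 4 tested genes are too few to read anything from none rising.

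Among NADPH oxidase genes, whose enzyme calprotectin helps to activate in phagocytes, 1 of 6 tested fell, RAC1 (-0.36, edgeR adjusted p = 0.00814, with offsets -0.21). Its call was lost without DMSO replicate 2 (-0.30) or UNC1999 replicate 1 (-0.33). Of 4 tested genes of metal binding and zinc export, only the zinc-sensing factor MTF1 fell (-0.46, edgeR adjusted p = 0.00441), a call lost without DMSO replicate 1 (-0.33). The metallothionein genes MT2A (-0.11) and MT1E (-0.17), named after their values were seen, were not called. With offsets the zinc exporter gene SLC30A1 was lower too (-0.37).

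Other proteins with EF-hands gave 5 higher, 4 lower and 25 not called of 34 tested, with a median of -0.0040 (with offsets 9 higher, 7 lower and a median of 0.01). ITSN2, an endocytic scaffold, rose to 73.2 ± 3.94 CPM in UNC1999, against 42.1 ± 0.429 CPM in DMSO (log2 fold change 0.80, edgeR adjusted p = 2.23e-06, with offsets 0.92). EPS15, another endocytic protein gene, rose by 0.68 (edgeR adjusted p = 4.79e-05, with offsets 0.32). CHP1, a cofactor of sodium and hydrogen exchangers, fell (-0.58, edgeR adjusted p = 8.94e-05, with offsets -0.28). Without DMSO replicate 1 there were 3 higher members, and without UNC1999 replicate 2 there were 8, with 6 lower.

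**Figure D4:**
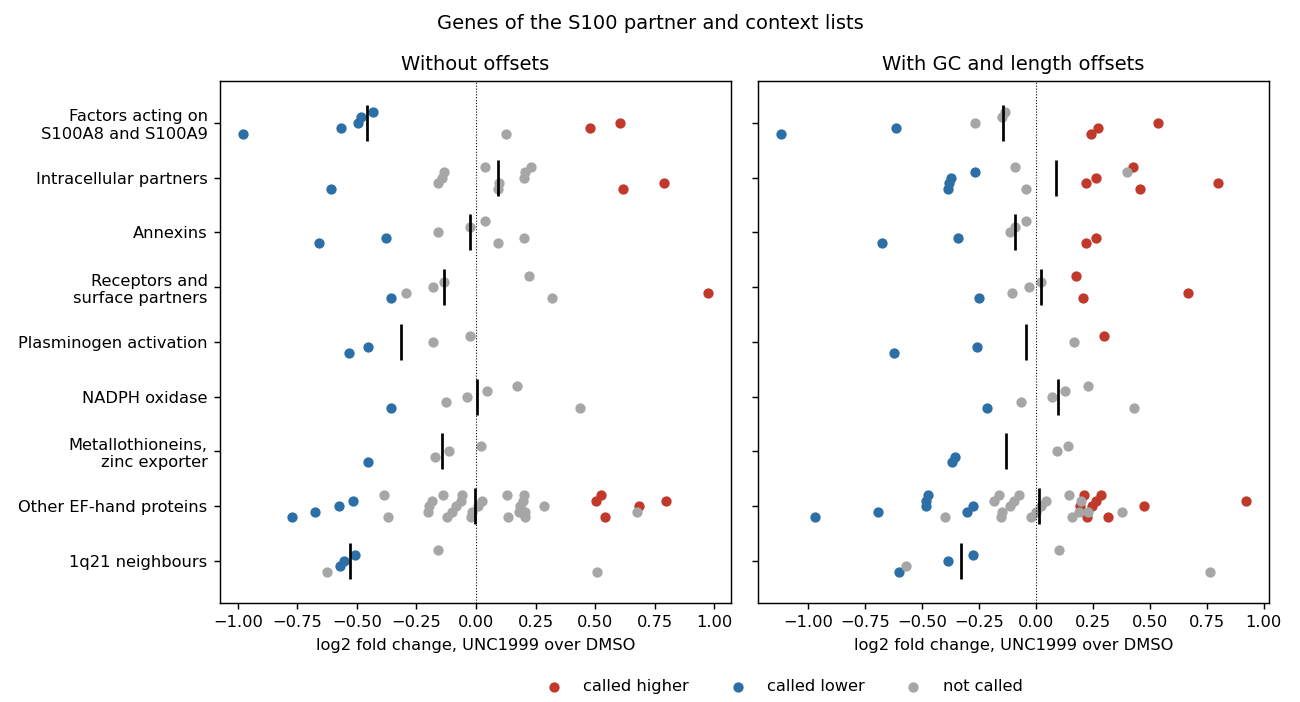
Log2 fold change of UNC1999 over DMSO for each tested gene of the partner and context lists, without offsets (left) and with GC and length offsets (right). Points are genes, coloured by call, and the black bar is the list's median. Factors acting on S100A8 and S100A9 have a median of -0.46 without offsets and -0.14 with them, while EF-hand proteins centre on 0.

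Few genes around the S100A genes had reads in this table. From 10 annotated genes before S100A10 to 10 after S100A1, GENCODE 29 lists 111 genes. Of 81 with a row that are no members, 19 had a count in any library and 6 were tested, 2 of them S100A1 and S100A2. None rose by edgeR, also at an unadjusted p under 0.05, by DESeq2 or by limma-voom, and 3 fell, with a median of -0.53 (with offsets 3 fell and the median was -0.33). All 3 lie near the ends of the window. Of all tested genes 15.7% rose and 19.5% fell, and 6 genes are too few to read a direction from. ILF2, an RNA-binding protein gene, fell to 295.6 ± 38.4 CPM in UNC1999, against 439.5 ± 4.86 CPM in DMSO (log2 fold change -0.57, edgeR adjusted p = 0.000109, with offsets -0.39). CHTOP, which takes part in mRNA export, fell too (-0.51, edgeR adjusted p = 0.000401, with offsets -0.28). THEM4, a thioesterase gene near S100A10 and named after its value was seen, had -0.55 (edgeR adjusted p = 0.00171, with offsets -0.60). The skin barrier genes IVL, FLG and SPRR3 had at most 2 counts in any library. INTS3, a widely transcribed gene at the end of the window, had at most 1. How reads were assigned to symbols is not known here, and its part in the low counts of this region was not tested. These 4 genes were named after their values were seen.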

How the data were processed

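RNA sequencing counts from NK92MI cells were used, from 3 UNC1999 and 2 DMSO libraries. The table the authors deposited holds raw counts, as whole numbers, for each gene symbol. Tools listed in the submitters' processing notes, with no roles, are HTSeq 0.13.5, STAR 2.7.9, fastp and edgeR 3.34.0, with genome build hg19. The sources used here give neither annotation nor strand setting. Columns were matched to samples by name.

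Of its 57221 rows 13075 passed filterByExpr. They went through edgeR 4.0.16 (R 4.3.3), with TMM factors and the quasi-likelihood test, and p-values were adjusted by Benjamini-Hochberg (threshold 0.05). SEs come from the fitted model, and the prior count for log2 CPM was 2. Lengths and GC content came from GENCODE 29 (GRCh38), which differs from hg19, and no coordinates were converted. Offsets were splines (6 and 4 degrees of freedom) of each library's deviation on GC content and length of the longest transcript, for the 11019 tested genes (84.3%) with both.

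The members and lists were chosen with earlier results of these data known. Named genes were all members, other S100 genes with counts, defining markers, the 5 genes nearest to S100A9 (average log2 CPM of at least 3), and per list up to 2 called genes per direction by smallest p, or the most abundant where none was called. Genes outside this rule are marked as named after their values were seen. Some genes that the rule names are not reported here. In simulated data with 200 changed genes among 13075, edgeR called 84% of genes changed 2-fold in the right direction and 63% of those changed 1.5-fold, and 4.55% of calls were wrong. The simulation changed a far smaller share of genes than the 35.2% called in the data. It also held no library that stood apart, so these rates need not hold for this contrast. A simulated GC trend in 11019 genes gave 3607 calls without offsets and 0 with them. That trend was smooth and no gene was changed, so it cannot show whether offsets also remove real changes that follow GC content. Alternatives were other normalizations (DESeq2 1.42.0 size factors, upper-quartile, none), other filters, robust dispersion, a replicate block, each library left out, the DESeq2 test, limma-voom (limma 3.58.1), a threshold of 0.01, and offsets. No set test was run.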

Additional observations from a re-analysis of the deposited data

How the results depend on the processing

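Over 16 alternatives, the log2 fold change of S100A9 ran from -1.14 to -0.70, the highest value with offsets and a replicate block together, and that of S100A4 from 0.32 to 0.65. They ran from -0.12 to 0.14 for S100A6, from -0.04 to 0.18 for S100A10 and from -0.17 to 0.17 for S100A11, so the signs of these 3 depend on the setting. The count of S100A members called higher was 1, but 0 at a threshold of 0.01, with the DESeq2 test, and, with single libraries left out, between 0 and 1. With libraries left out, genes called higher numbered 1158 to 2862 and genes called lower 1367 to 3030, against 2057 and 2546. Both were lowest without DMSO replicate 1 and highest without UNC1999 replicate 2, as were the list counts that follow. Higher genes in the partner and context lists numbered 10, and 19 with no normalization factors, 21 with offsets, 17 with offsets and a replicate block, and 7 to 16 with libraries left out. Lower ones numbered 20, and 13 to 24 with libraries left out. Without normalization factors the split of all calls turned to 2949 higher and 1742 lower, as all genes shift by 0.10 on the log2 scale. With upper-quartile factors it was 2625 and 2021. For the named genes of the lists, the sign turned for ITGAX without DMSO replicate 2 (-0.03) and without UNC1999 replicate 1 (-0.045; its range with libraries left out was -0.045 to 0.21), and for TRAC with offsets (0.0060) and with offsets and a replicate block (0.0090). The causes were not tested.

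Deviations from the group means correlated at 0.066 for replicate number 1 and 0.038 for number 2, so no pairing by number was seen. With 2 DMSO libraries, whose deviations mirror each other, these values cannot exclude a pairing. With a replicate block 1886 genes were called higher and 2136 lower, S100A9 had -0.87 and S100A4 had 0.46, with the same calls, and the partner and context lists had 10 higher and 18 lower. MYB, NPTN and PLGRKT were not called with the block. Depth limits S100A8 and S100A13, which could not be tested, and with 3 libraries against 2 an exact two-sided rank-sum p cannot fall under 0.2.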
